A study of Mus musculus with 6 samples.

Results

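The smooth muscle contractile genes described here are Acta2, Actg2, Tpm2, Lmod1, Myh11, Mylk, Tagln, Cnn1, Smtn and Des, 10 of the 16537 genes measured by a probe set with exactly 1 gene symbol. They were chosen by name with earlier results of these data known, so their counts beside the shares of all genes are descriptive only. Every probe set of the deposited table annotated to exactly 1 of them was used, 11 in all. Smtn had 2 and each other gene 1. Whole mouse lung was profiled on 6 single-channel arrays, 3 labelled Falcor-null and 3 labelled wild type. Falcor is a gene for a long non-coding RNA, and the null label stands for loss of it on both chromosomes. All 6 lungs had been exposed to naphthalene, which injures the club cells of the airway, and their strain is given as a mix of CD1 and C57Bl6. Time since naphthalene is labelled as 31, 32 and 33 days for the Falcor-null samples and 28, 29 and 30 days for wild type, so that day as labelled and genotype cannot be told apart. The labelled days go up by 1 from sample to sample through both groups, and whether each is the true time of that sample cannot be seen from these files. How the null allele was made, the age of the mice and whether samples came from separate animals are not given in the sources used here. The p-values therefore rest on the spread among these 6 samples, part or all of which may be technical.

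Smooth muscle shortens when myosin heads pull on actin filaments. Calcium entering the cell binds calmodulin, which switches on a kinase that phosphorylates the myosin light chain, and calponin, transgelin and smoothelin bind the actin filaments. In lung this machinery lies in the walls of airways, arteries and veins, and parts of it are also made by pericytes and myofibroblasts. Serum response factor with its coactivator myocardin drives many of these genes through a DNA element named the CArG box, and TEAD factors act on some of them through the MCAT element. In whole-lung RNA, fewer cells of a type and less RNA per cell cannot be told apart.

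Promoter sequence is shown for 4 of these genes because they include the largest differences with a promoter in the table (Tpm2 and Mylk) and the windows with a CArG-like stretch (Acta2 and Lmod1). Des, which had the smallest difference, is not among them. RefSeq promoter entries on GRCm38.p6 matched 7 of the 10 genes, Acta2, Tpm2, Lmod1, Mylk, Cnn1, Smtn and Des. None matched Tagln, Myh11 or Actg2, so the motif counts below say nothing of these. The lines below give the 250 bases before the annotated start, read 5′ to 3′ on the gene's strand. Capitals mark a CArG-like stretch, which is the CArG box with at most 1 base departing from it, or the MCAT core CATTCC on either strand. The windows are chr4:43523555-43523804 on the minus strand for Tpm2, chr16:34784700-34784949 on the plus strand for Mylk, chr19:34255374-34255623 on the minus strand for Acta2 and chr1:135324563-135324812 on the plus strand for Lmod1.
Tpm2: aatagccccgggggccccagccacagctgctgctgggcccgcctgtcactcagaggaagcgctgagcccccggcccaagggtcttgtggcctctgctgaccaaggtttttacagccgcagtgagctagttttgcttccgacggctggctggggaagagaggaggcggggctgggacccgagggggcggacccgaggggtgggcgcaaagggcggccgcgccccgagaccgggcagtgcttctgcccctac
Mylk: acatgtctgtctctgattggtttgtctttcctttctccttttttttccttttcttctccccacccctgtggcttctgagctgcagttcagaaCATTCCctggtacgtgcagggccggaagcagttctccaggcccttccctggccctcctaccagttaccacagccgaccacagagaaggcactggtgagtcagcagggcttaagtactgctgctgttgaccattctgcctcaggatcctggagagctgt
Acta2: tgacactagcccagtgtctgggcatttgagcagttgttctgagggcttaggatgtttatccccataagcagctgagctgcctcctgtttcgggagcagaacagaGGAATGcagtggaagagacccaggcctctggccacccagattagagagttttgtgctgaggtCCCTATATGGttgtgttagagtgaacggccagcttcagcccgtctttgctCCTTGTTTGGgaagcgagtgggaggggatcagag
Lmod1: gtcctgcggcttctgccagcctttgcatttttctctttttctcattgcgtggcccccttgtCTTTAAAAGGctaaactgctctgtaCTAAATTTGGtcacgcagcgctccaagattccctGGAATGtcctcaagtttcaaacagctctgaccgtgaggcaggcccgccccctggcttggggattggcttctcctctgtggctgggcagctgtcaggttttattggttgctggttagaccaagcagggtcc

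An exact CArG box stood in 0 of the 7 windows, against 1.47% of 32851 promoters of the same length. A CArG-like stretch stood in 2 of 7, against 18.6% of all promoters, with 2 such stretches each in Acta2 and Lmod1. The Acta2 stretches began 84 and 34 bases before the start, and those of Lmod1 began 189 and 164 bases before it. The MCAT core stood in 4 of 7, those of Acta2, Lmod1, Mylk and Smtn, against 12.6% of all promoters. None of the motif stretches overlapped another, and the windows of Tpm2, Cnn1 and Des held neither element. These matches are letters in a short window and describe no binding. The 2 genes with CArG-like stretches, Acta2 and Lmod1, had log2 differences, labelled Falcor-null minus wild type, of 0.17 and 0.15. The 5 without one had differences of 0.10 (Des), 0.29 (Cnn1), 0.32 (Smtn), 0.39 (Mylk) and 0.68 (Tpm2), a range that takes in both.

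The labels were first checked on the targeted gene. Falcor, listed as 9030622O22Rik, read 6.82, 6.34 and 6.32 on the log2 scale on the arrays labelled Falcor-null and 4.69, 5.01 and 5.45 on the wild-type arrays. The 3 arrays labelled Falcor-null thus all lay above wild type, 2.72-fold by the group means (log2 difference 1.44, limma adjusted p 0.0423). Loss of the RNA that the probe set reads would give the opposite direction. If the probe set lies outside the altered part of the gene, which cannot be seen from these files, it checks nothing. Every direction reported here rests on the labels as given and would reverse if the group labels were exchanged, which was not tested. Of the contractile genes, which mark smooth muscle, 7 were among the brighter genes of the arrays, between the 82.4th percentile of mean signal for Smtn and the 98.5th for Acta2. Actg2, Tpm2 and Lmod1 stood near or below the middle, at the 56.9th, 49.7th and 36.0th percentiles, and whether such signals lie above background is unknown. The coactivator gene Myocd averaged 5.97 in both.

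Every one of the 10 contractile genes had a higher mean on the arrays labelled Falcor-null than on the wild-type arrays, and 1 of them, Tagln, passed the test. The test was limma across all 16537 genes with Benjamini-Hochberg adjustment, with 0.05 as the threshold on the adjusted p. By that rule 0.0968% of all genes passed as higher and 0.556% passed in either direction. A higher mean was found in 50.8% of all genes. The median log2 difference was 0.25 over the 10 genes and 0.00258 over all genes tested, with single values from 0.10 for Des to 0.68 for Tpm2. At an unadjusted p under 0.05, 4 of the 10 were higher (Tagln, Mylk, Tpm2 and Smtn), against 6.11% of all genes, while 0 were lower, against 7.65% of all genes. In the same 4 genes the groups did not overlap, with all 3 arrays labelled Falcor-null above all 3 wild-type arrays, against 8.96% of all genes. In the lists described below, this held for 0 of 11 lymphocyte markers at the least and for 7 of 14 endothelial markers. At the most it held for 12 of 18 markers of airway and vascular smooth muscle and myofibroblasts.

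**Figure D1:**
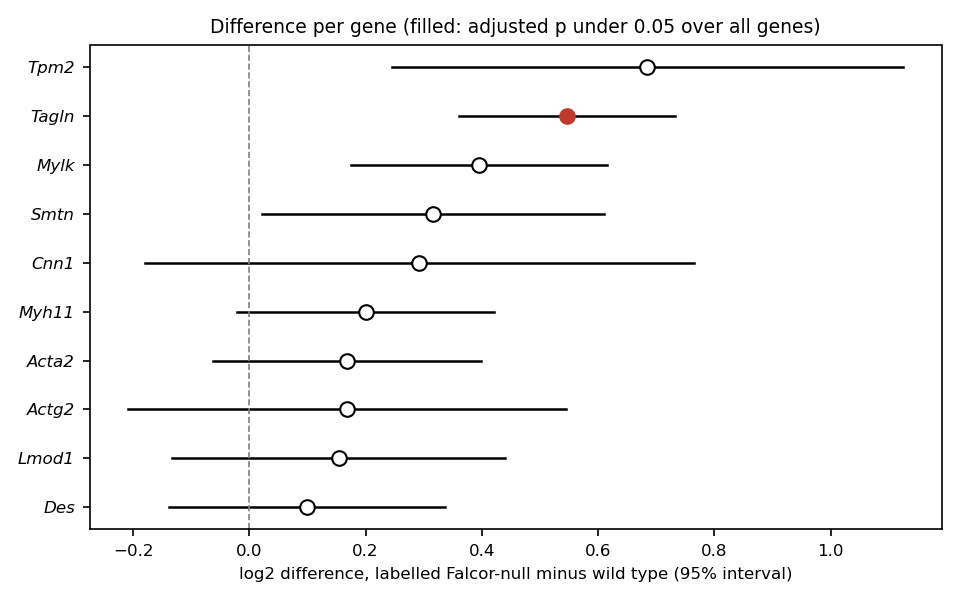
Log2 difference of each contractile gene, arrays labelled Falcor-null minus wild type (x axis), with genes on the y axis in order of the difference; points are limma estimates, lines their 95% intervals, and the filled point passed at an adjusted p under 0.05. All 10 points lie right of 0, Tagln is the filled one, and the intervals of Tpm2, Mylk and Smtn also lie above 0 before adjustment.

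The actin filament genes came first in the order of the machinery. Acta2, the smooth muscle alpha-actin of vessels and airways, read 11.10, 10.87 and 10.81 on the arrays labelled Falcor-null, against 10.69, 10.82 and 10.76 on the wild-type arrays. Labelled Falcor-null replicate 1 stood clear of the other 5 arrays, and replicate 3 fell just below the highest wild-type array. The log2 difference was 0.17 (SE 0.10, 95% interval -0.06 to 0.40) with a limma adjusted p of 0.506. Actg2, the gamma-actin of enteric smooth muscle, read 7.59, 7.30 and 7.06 on the arrays labelled Falcor-null, against 6.98, 7.08 and 7.39 on the wild-type arrays. The groups overlapped widely, and 1 of the 3 arrays labelled Falcor-null lay above every wild-type array (log2 difference 0.17, SE 0.16, adjusted p 0.707). The 2 actins are close relatives in sequence, so signal may be shared between their probe sets.

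Tpm2, beta-tropomyosin, which lies along the actin filament, had the largest difference of the 10. Its log2 signal was 7.64, 7.25 and 6.81 on the arrays labelled Falcor-null, against 6.53, 6.61 and 6.50 on the wild-type arrays. All 3 arrays labelled Falcor-null were above all wild-type arrays, but they spread over 0.82, against 0.11 within wild type. The group means were 7.23 ± 0.41 on arrays labelled Falcor-null and 6.55 ± 0.05 in wild type (SD, n = 3 each). The log2 difference of 0.68 (SE 0.19, 95% interval 0.24 to 1.12), or 1.61-fold, did not pass (adjusted p 0.177). Lmod1, leiomodin 1, an actin nucleator of smooth muscle, read 6.43, 6.41 and 6.14 on the arrays labelled Falcor-null, against 6.05, 6.38 and 6.09 in wild type. The groups overlapped through wild type replicate 2, and the log2 difference of 0.15 (SE 0.12) had an adjusted p of 0.637.

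Myh11, the smooth muscle myosin heavy chain, is the motor and the most restricted marker of mature smooth muscle among these genes. It read 9.36, 9.22 and 9.08 on the arrays labelled Falcor-null, against 8.95, 9.02 and 9.08 in wild type. Labelled Falcor-null replicate 3 read just below wild type replicate 3, and the other arrays labelled Falcor-null were above all wild-type arrays. The log2 difference was 0.20 (SE 0.09, 95% interval -0.02 to 0.42, adjusted p 0.410).

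Mylk, the kinase that calmodulin switches on to phosphorylate the myosin light chain, read 9.47, 9.39 and 9.66 on the arrays labelled Falcor-null, against 9.10, 9.19 and 9.05 in wild type. The groups did not overlap, with a gap of 0.20 between the lowest array labelled Falcor-null and the highest wild-type array. The log2 difference was 0.39 (SE 0.09, 95% interval 0.17 to 0.62), or 1.31-fold, and did not pass (adjusted p 0.131). Among the 10 genes Mylk had the smallest p after Tagln.

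**Figure D2:**
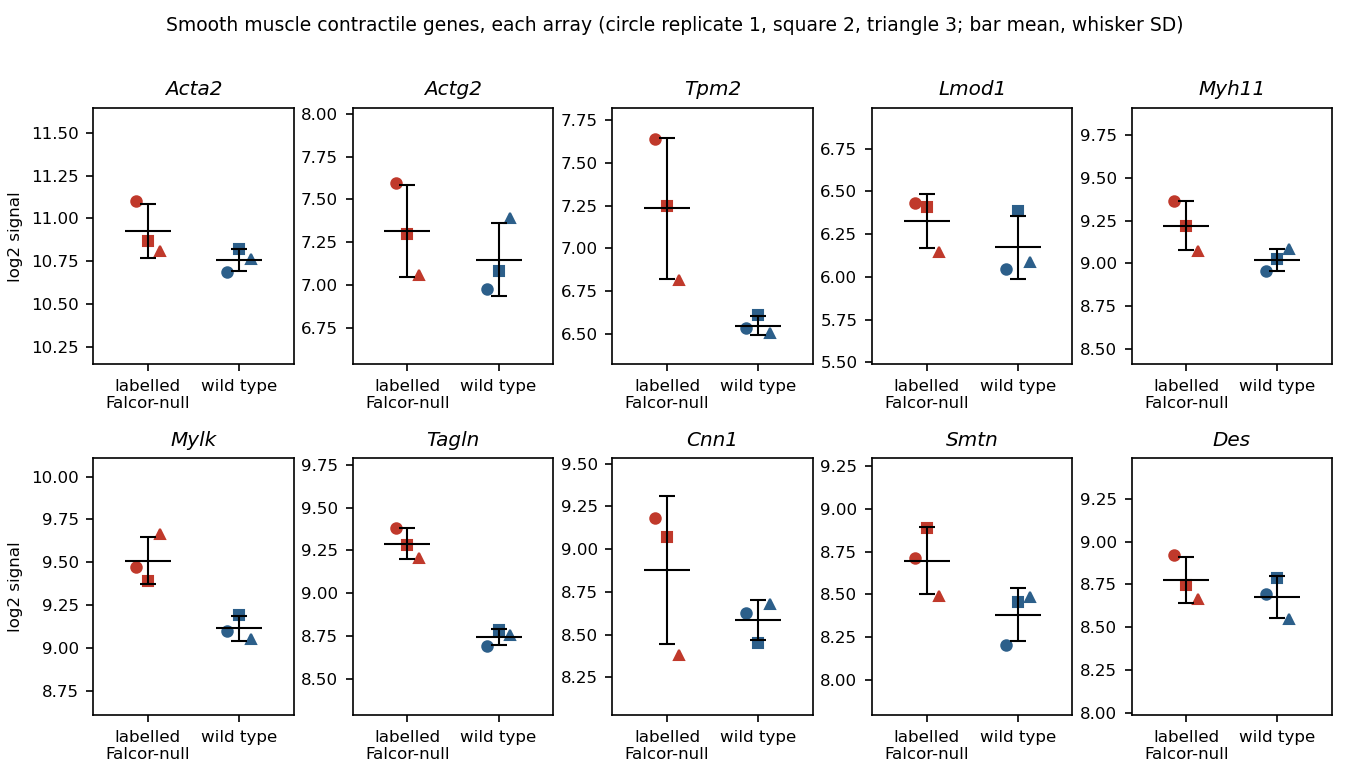
Log2 signal (y axis) of each contractile gene on every array, labelled Falcor-null in red and wild type in blue; symbols give the replicate number, horizontal bars the group mean and whiskers the SD, and each panel spans the same 1.5 log2 units around its own values. Tagln, Mylk, Tpm2 and Smtn have groups that do not overlap, and the 3 labelled Falcor-null arrays of Tpm2 and Cnn1 spread over about 0.8.

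The actin-binding proteins held the single gene that passed. Tagln, transgelin, an early and abundant protein of smooth muscle, read 9.38, 9.28 and 9.21 on the arrays labelled Falcor-null, against 8.69, 8.78 and 8.76 in wild type. Its groups were the tightest and farthest apart of the 10, with a gap of 0.42 between the nearest arrays. It rose 1.46-fold to 9.29 ± 0.09 on the arrays labelled Falcor-null, against 8.74 ± 0.05 in wild type (SD, n = 3 each). The log2 difference was 0.55 (SE 0.08, 95% interval 0.36 to 0.73) with a limma adjusted p of 0.0407. This call was lost whichever single array was left out, with log2 differences from 0.50 to 0.59 and adjusted p-values from 0.0754 to 0.141.

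Cnn1, calponin 1, which binds actin and slows the myosin motor, read 9.18, 9.07 and 8.38 on the arrays labelled Falcor-null, against 8.62, 8.45 and 8.68 in wild type. It divided the arrays labelled Falcor-null: replicates 1 and 2 were above every wild-type array and replicate 3 was below every one. The log2 difference of 0.29 (SE 0.20, 95% interval -0.18 to 0.76) had an adjusted p of 0.575, and without labelled Falcor-null replicate 3 it was 0.54. Smtn, smoothelin, an actin-binding protein of contractile smooth muscle, read 8.71, 8.89 and 8.49 on the arrays labelled Falcor-null, against 8.20, 8.45 and 8.49 in wild type by its brighter probe set (17259831). The groups were separated by 0.0057 (log2 difference 0.32, SE 0.13, adjusted p 0.329). The other Smtn probe set (17246624) averaged 4.83 in both groups, near the lowest probe set mean of the table (4.32), and differed by 0.0013, with an adjusted p of 0.996 when every probe set was tested.

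Des, desmin, the intermediate filament protein of muscle, which also marks cardiac muscle of the pulmonary veins and some pericytes, had the smallest difference. It read 8.92, 8.74 and 8.66 on the arrays labelled Falcor-null, against 8.70, 8.79 and 8.55 in wild type. Only labelled Falcor-null replicate 1 was above every wild-type array (log2 difference 0.10, SE 0.10, 95% interval -0.14 to 0.34, adjusted p 0.731).

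The 10 genes did not follow the groups alone. Labelled Falcor-null replicate 1 was the highest of the 6 arrays for 8 genes, the exceptions being Mylk, highest in replicate 3, and Smtn, highest in replicate 2. Labelled Falcor-null replicate 3 was the lowest of its group for 9 genes, all but Mylk. Averaged over the 10 genes after each was centred on its own mean, the log2 level was 0.31, 0.18 and -0.04 on the arrays labelled Falcor-null, against -0.21, -0.11 and -0.13 in wild type. All 3 averages of the arrays labelled Falcor-null were above those of wild type, and replicate 3 was nearer to wild type replicate 2 than to either array of its own group. Wild type replicate 1 was the lowest of all arrays for 6 genes. Leaving out labelled Falcor-null replicate 1 lowered the median difference of the 10 genes to 0.13, while all 10 stayed above 0 with any single array left out.

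**Figure D3:**
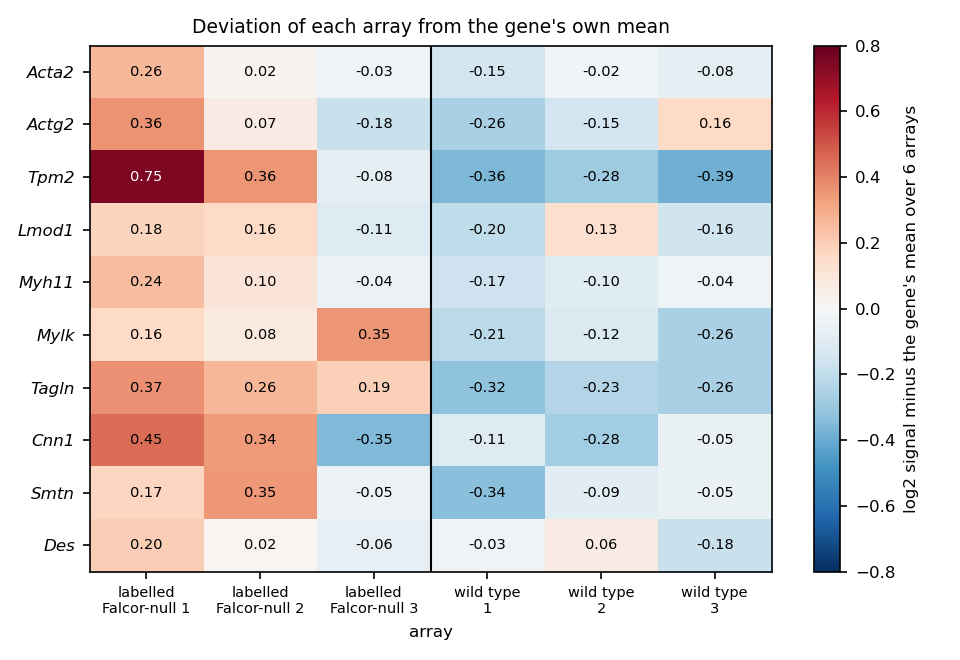
Deviation of each array (columns) from the gene's own mean log2 signal over the 6 arrays, for each contractile gene (rows), with arrays labelled Falcor-null left of the line and wild type right of it. Labelled Falcor-null replicate 1 is above the mean for all 10 genes, replicate 3 for Mylk and Tagln only, and wild type replicate 1 for none.

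**Figure D4:**
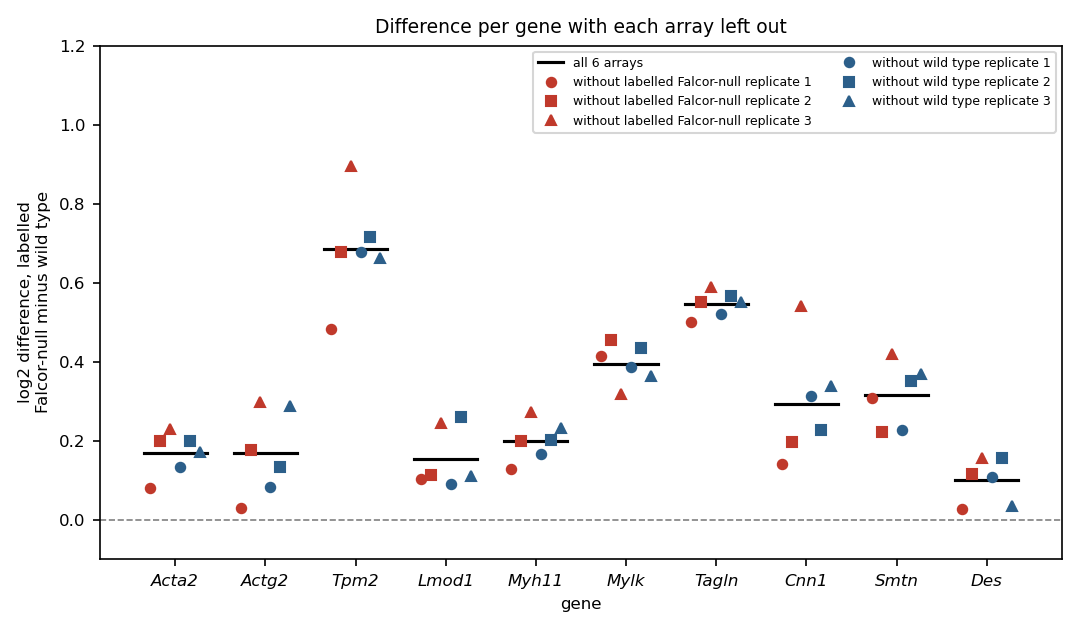
Log2 difference of each contractile gene (x axis) with all 6 arrays (black bar) and with each array left out (symbols; red for an array labelled Falcor-null, blue for wild type). Every value is above 0, Tagln moves least for its size (0.50 to 0.59), and Actg2 and Des come nearest to 0, at 0.03, without labelled Falcor-null replicate 1.

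The genes whose course over the 6 arrays was nearest to the average of the 10 were sought among other genes. Left out by symbol were microRNA, small RNA, olfactory, vomeronasal, Mup, LOC, Gm and Rik genes, -ps pseudogenes, sequence-numbered genes and every symbol beginning with Rn. Likeness was the root mean square difference between profiles centred on their own means. The nearest were Slc52a3 (0.0327), a riboflavin transporter, Ypel2 (0.0328), Rasgrf2 (0.0356), an exchange factor for small GTPases, Tspan12 (0.0376), a tetraspanin, and Vamp5 (0.0397), a protein of vesicle fusion. The contractile genes themselves lay 0.06 (Myh11) to 0.24 (Tpm2) from their average. With 6 arrays and so many genes, near profiles arise easily. The log2 differences of the 5 nearest genes, 0.25 to 0.32, had limma adjusted p-values from 0.203 to 0.316.

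The other proteins of the contractile apparatus and its anchors were mostly higher, but none passed. Of 27 measured, 22 were higher and 5 lower on the arrays labelled Falcor-null, with a median log2 difference of 0.14. In limma at an unadjusted p under 0.05, 2 were higher and 1 lower, against 6.11% and 7.65% of all genes. A higher mean was found in 50.8% of all genes. The 4 with the smallest p were Itga8 (0.44, adjusted p 0.228), an integrin of smooth muscle and myofibroblasts, Flna (0.21, adjusted p 0.259), the actin cross-linker filamin A, Actn1 (-0.20, adjusted p 0.322), alpha-actinin 1, and Myl9 (0.27, adjusted p 0.372). Myl9 encodes the light chain that Mylk phosphorylates, and read 9.51, 9.47 and 9.68 on the arrays labelled Falcor-null, against 9.07, 9.46 and 9.32 in wild type. Its groups were separated by less than the spread within either.

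Of 17 channel and calcium store genes, 11 were higher and none passed (median 0.14, 2 higher at an unadjusted p under 0.05). The share of all genes higher at that level was 6.11%. Jph2, which holds calcium stores at the cell membrane, gave 0.31 (adjusted p 0.143) and the chloride channel Ano1 gave 0.35 (adjusted p 0.303). Neither Casq2 (0.27, adjusted p 0.389), a calcium store protein, nor the potassium channel Kcnma1 (-1.99, adjusted p 0.404) passed.

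Receptors that set smooth muscle tone divided nearly evenly, 13 higher and 11 lower of 24, none passing (median 0.04, with 2 higher and 3 lower at an unadjusted p under 0.05, where 6.11% of all genes were higher and 7.65% lower). The bradykinin receptor Bdkrb2 gave -0.55 (adjusted p 0.147), the thrombin receptor F2r 0.30 (adjusted p 0.218), Ramp1, a partner of the receptor for calcitonin gene-related peptide, -0.40 (adjusted p 0.321) and the prostacyclin receptor Ptgir -0.33 (adjusted p 0.355). Among 26 measured regulators of smooth muscle genes, 20 were higher (median 0.08). Unadjusted p was under 0.05 for 4 higher and 1 lower, against 6.11% and 7.65% of all genes. By the adjusted p 1 passed, where 0.0968% of all genes passed as higher. This was Foxf1, a forkhead factor of lung mesenchyme, at 10.67, 10.69 and 10.70 on the arrays labelled Falcor-null, against 10.15, 10.27 and 10.18 in wild type (1.40-fold, log2 difference 0.49, SE 0.07, adjusted p 0.0428). The Foxf1 call was lost whichever array was left out (adjusted p 0.0909 to 0.142). The coactivator Myocd differed by -0.0075 (adjusted p 0.979) at a dim signal.

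Paralogs of the contractile genes included 1 that passed. Of 26 measured, 20 were higher, 3 of them at an unadjusted p under 0.05, with a median log2 difference of 0.10. Among all genes 6.11% were higher at that level, and 0.0968% passed as higher. The brighter Tpm3 probe set rose 2.18-fold (log2 difference 1.13, SE 0.10, adjusted p 0.00894), reading 10.12, 9.87 and 9.87 on the arrays labelled Falcor-null, against 8.74, 8.92 and 8.83 in wild type. That call held whichever array was left out. Its dimmer probe set averaged 6.26 on the arrays labelled Falcor-null and 6.20 in wild type, so the 2 probe sets disagree. The tropomyosins resemble one another in sequence, and signal may be shared with Tpm2.

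Markers of other cell types that share these genes were mostly higher too. Of 15 pericyte markers, 14 were higher (median 0.27) and none passed, 5 of them higher at an unadjusted p under 0.05. Among all genes 6.11% were higher at that level. The smallest p-values were those of Mcam at 0.46 (adjusted p 0.0602), Higd1b at 0.35 (adjusted p 0.137), Cspg4 at 0.29 (adjusted p 0.194) and Lamc3 at 0.38 (adjusted p 0.226). Their mean log2 level was 8.26 to 8.47 on the arrays labelled Falcor-null, against 8.06 to 8.21 in wild type. Of 18 genes listed as markers of airway and vascular smooth muscle and myofibroblasts, 17 were higher (median 0.26). Gdf10, a secreted factor related to TGF-beta, passed (1.49-fold, log2 difference 0.57, limma adjusted p 0.0465), where 0.0968% of all genes passed as higher. Which cells gave the Gdf10 signal cannot be seen in whole-lung RNA. At an unadjusted p under 0.05, 9 of the 18 were higher and 1 lower, against 6.11% and 7.65% of all genes. In 12 the groups did not overlap, all higher on the arrays labelled Falcor-null, against 8.96% of all genes. This list was chosen with earlier results of these data known, so these shares are descriptive only. Pdgfra and Npnt also stand among the fibroblast matrix markers below. The Gdf10 call was lost whichever array was left out (adjusted p 0.0807 to 0.155). The list's mean level was 7.88 to 7.92 on the arrays labelled Falcor-null, against 7.57 to 7.65 in wild type. Aspn (0.98, adjusted p 0.101) and Hhip (0.54, adjusted p 0.0547), myofibroblast and smooth muscle markers, were chosen after seeing their values and did not pass.

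Fibroblast and endothelial markers were mostly higher, without passing, and lymphocyte markers were lower. Of 15 fibroblast matrix markers 14 were higher (median 0.27, none passing, mean level 9.43 to 9.62 on the arrays labelled Falcor-null and 9.14 to 9.44 in wild type), led by Col6a1 (0.47), Fn1 (0.28), Col3a1 (0.43) and Pdgfra (0.27), with adjusted p-values from 0.253 to 0.325. At an unadjusted p under 0.05, 6 were higher, against 6.11% of all genes, the share to set beside the endothelial count too. By the adjusted p, 0.556% of all genes passed in either direction. All 14 endothelial markers were higher (median 0.15, none passing, mean level 10.1 to 10.2 on the arrays labelled Falcor-null and 9.9 to 10 in wild type), led by Cldn5 (0.43), Tie1 (0.47), Egfl7 (0.40) and Emcn (0.63), with adjusted p-values from 0.101 to 0.278, and 4 were higher at an unadjusted p under 0.05. All 11 measured lymphocyte markers were lower (median -0.75), and 5 fell by the test: Jchain (-2.78), Cd3e (-1.20), Cd3g (-1.15), Mzb1 (-0.85) and Cd79a (-0.75). Of these, Jchain passed whichever array was left out, Cd3e in 5 of 6 such fits, Mzb1 in 3 (lost without wild type replicate 2 or labelled Falcor-null replicates 1 or 2), Cd79a in 1 (without wild type replicate 3) and Cd3g in 0, with Cd3e lost without labelled Falcor-null replicate 2 (adjusted p 0.0529). The list's mean level was 7.04 to 7.12 on the arrays labelled Falcor-null, against 8.01 to 8.06 in wild type. The part of these shifts in the values of the contractile genes was not tested.

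Striated muscle markers were read because Des is shared with cardiac and skeletal muscle and whole lung can hold the muscle sleeve of the pulmonary veins. Beside the counts below, 6.11% of all genes were higher and 7.65% lower at an unadjusted p under 0.05, and 50.8% had a higher mean. Of 19 cardiac markers, 16 were higher and none passed (median 0.13, 3 higher and 1 lower at an unadjusted p under 0.05, mean level 6.9 to 7.0 on the arrays labelled Falcor-null and 6.82 to 6.85 in wild type), with Myh7 at 0.58 (adjusted p 0.131), Cox6a2 at -0.41 (adjusted p 0.230) Tnni3 at 0.24 (adjusted p 0.256) and Ckm at 0.30 (adjusted p 0.281). Of 10 measured skeletal markers, 6 were higher and none passed (median 0.04, 1 higher at an unadjusted p under 0.05), with Acta1 at 0.16 (adjusted p 0.390), Tnni2 at 0.17 (adjusted p 0.552) and Neb at -0.11 (adjusted p 0.610) after Ckm. Their mean level was 5.48 to 5.61 on the arrays labelled Falcor-null and 5.44 to 5.53 in wild type. Of 10 mesothelial markers, 8 were higher and none passed (median 0.15, 1 higher at an unadjusted p under 0.05), with Wt1 at 0.22 (adjusted p 0.341), Msln at 0.27 (adjusted p 0.454), Aldh1a2 at 0.34 (adjusted p 0.490) and Upk3b at 0.20 (adjusted p 0.532). The group ranges of their mean level overlapped, at 7.64 to 7.98 on the arrays labelled Falcor-null and 7.65 to 7.83 in wild type.

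**Figure D5:**
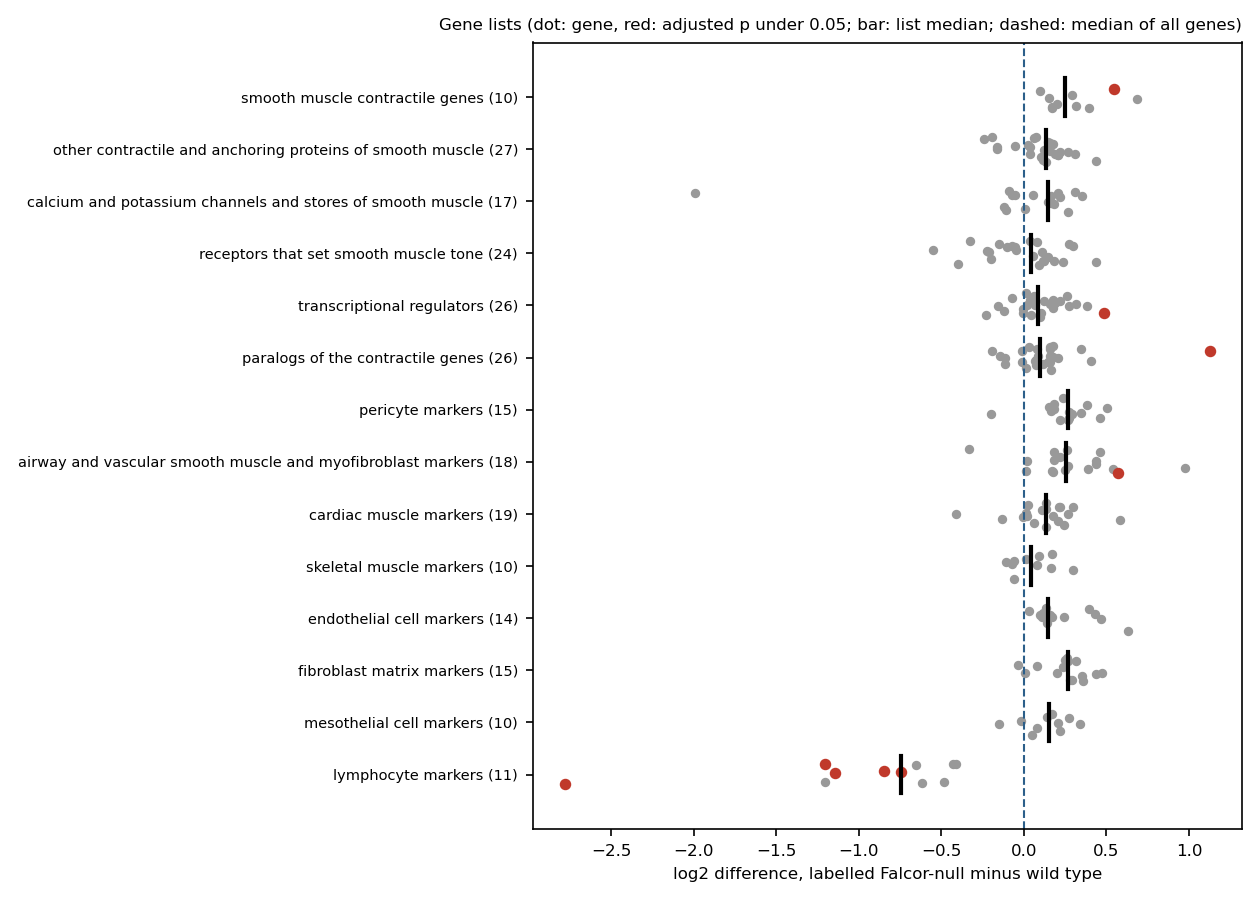
Log2 difference, arrays labelled Falcor-null minus wild type (x axis), for every measured gene of 14 lists (rows, number measured in brackets); red dots passed at an adjusted p under 0.05, black bars are list medians and the dashed line is the median of all genes. The contractile, pericyte, airway and vascular smooth muscle and myofibroblast, and fibroblast matrix lists have medians of 0.25 to 0.27. The lymphocyte list stands at -0.75, and the other lists, those of further smooth muscle genes included, have medians of 0.04 to 0.15.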

How the data were processed

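The authors deposited log2 values, 1 per probe set and array. Among tools, the notes of the submitters list oligo, RMA and limma. RMA quantile-normalizes the arrays, so a shift of most genes would be removed. The deposited distributions still differed by group. Lowest values per array were 2.09 to 2.42 on arrays labelled Falcor-null and 3.19 to 3.22 in wild type, and the cause was not tested. Array medians were 6.69 to 6.70 on arrays labelled Falcor-null and 6.72 to 6.74 in wild type, and arrays correlated over probe sets at Pearson's r of 0.982 to 0.986 within groups and 0.970 to 0.976 between them. No detection calls were used, so signal over background is unknown, and precision is limited by the number of arrays.

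Of 24173 probe sets, 17476 had exactly 1 symbol in the platform annotation, 1308 several and 5389 none there. The brightest probe set stood for each of 16537 genes. Differences, labelled Falcor-null minus wild type, were tested by limma 3.58.1 (R 4.3.3), two-sided, without covariates, with Benjamini-Hochberg adjustment over all genes. An exact permutation test of 3 arrays against 3 cannot go below 0.1. The test was checked on simulated data. Lists were described by counts and medians; 14 of their 227 measured genes stood in more than 1 list, and 1 further list is not reported here. Named were all contractile genes, each list's passing genes or its 4 smallest p-values, and the 5 nearest profiles; Myocd, Aspn and Hhip were added after their values were seen. The contractile genes and lists were chosen with earlier results of these data known. The labels do not say whether replicate numbers pair the arrays. Deviations from group means of arrays with the same number correlated at -0.019, 0.011 and -0.037. These values give no sign of pairing but cannot exclude it. Promoters came from RefSeq. Alternatives covered blocking, normalization, variance model, array weights, dim probe sets, probe set choice, threshold and left-out arrays. Figures were drawn with matplotlib 3.10.9.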

Additional observations from a re-analysis of the deposited data

How the results depend on the processing

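Under 17 alternatives, 78 of 169 differences of single contractile genes equalled the value reported, since changing the threshold, the variance model, the block or the set of genes tested leaves the difference itself as it is, and averaging probe sets can move Smtn only. None of the 91 that differed changed sign. The count with a higher mean, an alternative added after seeing the data, was 10 of 10 throughout, or 9 of 9 where dim probe sets below the median left out Lmod1. Their median difference moved between 0.13 and 0.31, within the spread between replicates. Of the 10, only Tagln passed under any alternative, in 9 of 16 at the 0.05 threshold, with adjusted p-values from 0.0152 with an intensity trend to 0.141. With the replicate numbers as a block, 0 contractile genes passed (Tagln limma adjusted p 0.124) and 32 of all genes did. Whether the numbers pair the arrays is not given. With that block Tpm3 (adjusted p 0.0503), Foxf1 (0.124) and Gdf10 (0.119) did not pass either, and of the 5 lymphocyte genes Jchain and Cd3e did. At an adjusted p under 0.1, 280 genes passed, and Tagln alone of the 10. Leaving out single arrays gave 0 contractile genes passing each time (in limma, where 4 had an unadjusted p under 0.05 with all arrays) and 18 to 89 of all genes, against 92. Besides Tagln, the smallest adjusted p in any alternative was 0.0754, for Tpm2 without labelled Falcor-null replicate 3. Among the 13 other lists, 32 of 220 recounts of passing genes moved by over 1.5 times and 21 of the 137 medians that differed from the value reported did so by more than the spread between replicates. The cause of these changes was not tested. Signal over background is unknown and limits what dim genes such as Lmod1 can show.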

Other observations

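Kcnma1, the large-conductance potassium channel of smooth muscle, varied more between wild-type arrays than any shift described for the contractile genes. It read 4.63, 4.25 and 5.09 on the arrays labelled Falcor-null and 6.78, 4.43 and 8.73 on the wild-type arrays, so that wild type replicate 2 lay within the range of the arrays labelled Falcor-null. The log2 difference of -1.99 (SE 0.93) did not pass in limma (adjusted p 0.404). Casq2, a calcium store protein, read 5.86, 5.83 and 5.84 on the arrays labelled Falcor-null and 5.37, 5.53 and 5.83 on the wild-type arrays.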
